A study of Salmo salar with 30 samples.

Results

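The 121 probes described here carry the names of genes of the cell cycle. They were taken from the study's supplementary list of probes grouped by biological process, as those it places under cell cycle, and they are 121 of the 21117 probes in the deposited expression table. The list holds 122 such probes, of which 121 were analysed. They carry 106 different names, since 15 names each stand on a pair of probes, and 10 of the 121 are also listed under heart development, PCNA and CDC2 among them. The supplementary tables list probes for the difference between rearing environments over all 3 families, so that difference chose the members. It is given below as a description with no test. The least extreme member by that comparison was 1 of the probes for the receptor PDGFRB (C227R008), with a mean difference of -0.71 on the log2 scale and an unadjusted p of 0.0148 in a fit of 15 juveniles against 15.

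The samples were whole heads of 30 Atlantic salmon (Salmo salar) juveniles at emergence, when feeding on the yolk ends. The fish belonged to 3 full-sib families, X11 from 2 wild parents and X22 and X35 each from a wild dam and a farmed sire, and were reared in an enriched environment (with gravel) or an unenriched one (without gravel). There were 5 juveniles for each family and environment, and no other treatment is named. Each family had 1 tank per environment, 6 tanks in all, so a family by environment group is also a tank, and p-values measure the spread between siblings of a tank. Head RNA of each juvenile was labelled with Cy5 and hybridized to an Agilent salmonid array against a Cy3-labelled pool of all the samples. Values are log2 ratios of a juvenile to that pool, so 0 is the level of the pool, and a difference of 1 is a doubling. Values of the 5 fish of a group are listed by replicate number, which was not used to pair fish, with enriched fish first.

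A dividing cell licenses its replication origins in G1, copies its DNA in S phase, condenses the copies, attaches them through kinetochores to a microtubule spindle and waits at the spindle assembly checkpoint until every chromosome is attached. Cyclin-dependent kinases drive these steps, and inhibitors of the kinases hold cells in G1. In the head of a young fish, dividing cells are found in the brain, the eye, the gills, the growing cartilage and the skin, among other tissues. In RNA of a whole head, fewer cells of a type and less RNA per cell cannot be told apart. The probes were sorted by the known function of their names into DNA replication (13), DNA repair and damage signalling (12), chromosome condensation and cohesion (9), centromere and kinetochore (8), spindle assembly checkpoint (4), spindle, centrosome and cytokinesis (21), cyclins, CDKs and their regulators (8), nuclear pore and Ran cycle (10), chromatin and transcription (10) and other (26). The last of these holds proteins such as proteasome subunits, caveolin-2 and PDGFRB, whose main known roles lie elsewhere.

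Between 28.2 and 42.9% of the spots of an array were above the limit of its Cy5 background (the mean plus 2 SD), and X35 enriched replicate 4 had the lowest share. Of the values of the 121 probes, 27.7% had a Cy5 signal under that limit, against 21.5% of the values of all probes, and 0.909% had been imputed by the authors, on 13 of the probes. Such a dim signal gives only a bound on the level. On every enriched array that measured them, 26 of the 121 probes (21.5%) were dim, against 6.41% of all probes, and on every unenriched array 8 were dim (6.61%, against 6.39% of all probes). The environment difference chose the members, so nothing is read from these shares. Some probes were dim on every array of a group that a fold compares. Their fold is given as an approximate ratio of Cy5 signals, if most arrays of the brighter group were above the limit, or left out. Slides were inferred from a code in the array labels. By that code the 30 arrays lay on 8 slides with up to 4 of these arrays each, and only 4 slides held juveniles of 1 family from both environments.

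Transcripts of 114 of the 121 probes had a lower mean in enriched than in unenriched juveniles. The background for such a count is 52% of all 21117 probes. The median difference of the 121, enriched minus unenriched, was -0.46 on the log2 scale, and that of all probes was -0.01. Within X11 the median difference was -0.51 (113 of 121 lower, background 51.4%). It was -0.38 for X22 (109 lower, background 50%) and -0.43 for X35 (113 lower, background 49.4%), and 107 probes were lower in all 3, as were 3543 of all probes. The medians of all probes in these families were -0.01, -0.0002 and 0.0034. In the limma fits of the environments, 0.616% of all probes were called over the 3 families, 13.3% in X11 (7.38% lower and 5.97% higher in enriched fish), 0.00474% in X22 and 0% in X35. Because the list was drawn from this contrast, nothing is read from the distance between the members and these backgrounds.

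**Figure D1:**
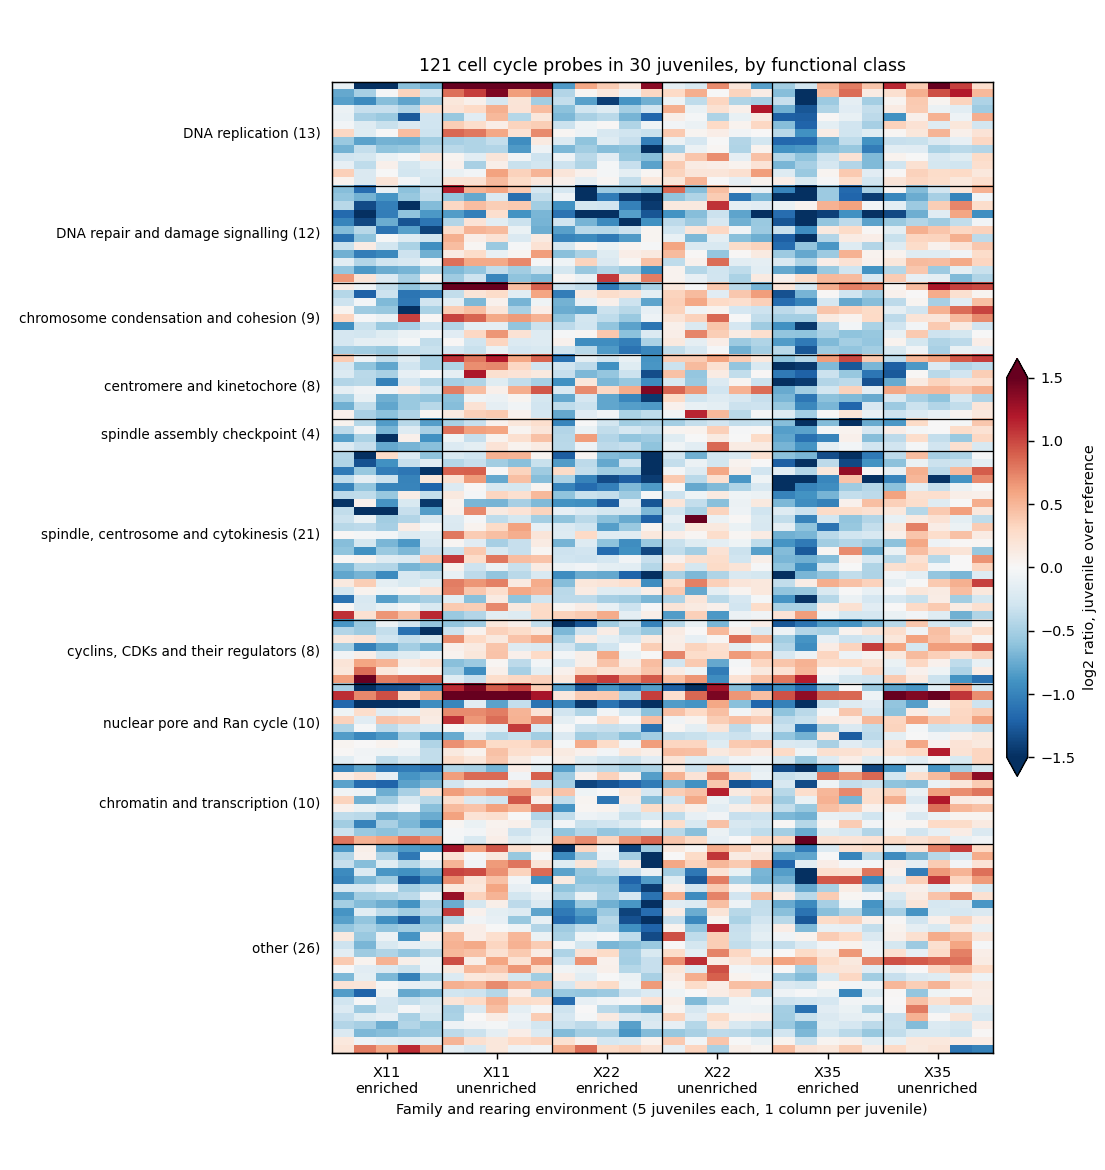
Log2 ratio of each of the 121 cell cycle probes (rows, sorted into 10 functional classes) in each of the 30 juveniles (columns), with blue below and red above the reference pool and the scale stopped at -1.5 and 1.5. Within each family most rows are bluer in the 5 enriched columns than in the 5 unenriched ones, and the 7 probes that run the other way include cyclin-G2 and both probes of CDK4 inhibitor B.

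The medians over the 121 probes in single juveniles show how far the fish of each group stood apart. The X11 enriched juveniles had medians of -0.33, -0.36, -0.45, -0.43 and -0.37, and the X11 unenriched juveniles 0.06, 0.10, 0.20, 0.08 and 0.03. X22 enriched juveniles stood at -0.37, -0.26, -0.29, -0.39 and -0.48, and their unenriched sibs at 0.08, -0.10, 0.15, -0.07 and -0.06. X35 enriched juveniles stood at -0.53, -0.71, -0.17, -0.04 and -0.26, and their unenriched sibs at -0.10, 0.08, 0.04, 0.13 and 0.14. The groups were separate in X11 and X22 and overlapped in X35, where enriched replicate 4, the array with the lowest Cy5 share, lay above the lowest unenriched juvenile. The X35 enriched fish also spread most widely (SD 0.27, against 0.05 in X11 and 0.09 in X22). Among X35 replicates 1 and 2 the medians were -0.53 and -0.71 in enriched against -0.10 and 0.08 in unenriched fish. Among replicates 3 to 5 they ran from -0.26 to -0.04 against 0.04 to 0.14. Neither subset overlapped, but the subsets were picked from the values and the members by this contrast, so nothing is read from it. The paper describes a separate cluster of X35 juveniles, over all probes, with equal numbers from both environments. Whether it holds these replicates was not tested.

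Probe by probe, the 5 enriched juveniles all lay below their 5 unenriched sibs for 42 of 121 probes in X11, where 6.14% of all probes did so. In X22 the count was 14 (background 1.33%) and in X35 it was 17 (background 0.706%). No member and no other probe (0%) was separated in this direction in all 3 families. The opposite separation, all 5 enriched above, was seen for 4 members in X11 (background 5.09%) and for none in X22 or X35 (backgrounds 0.89 and 0.398%).

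**Figure D2:**
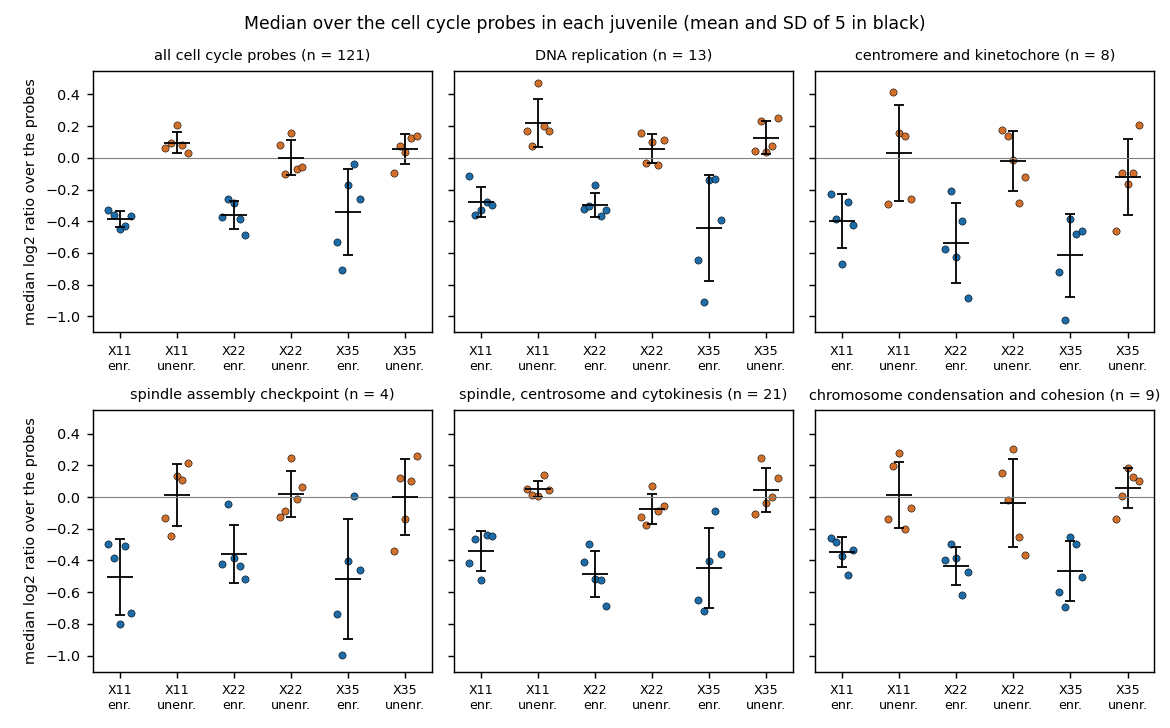
Median log2 ratio in each juvenile over all 121 probes and over the probes of 5 functional classes, by family and rearing environment (blue enriched, orange unenriched), with the mean and SD of 5 juveniles in black. In the panel of all probes, X11 enriched juveniles sit between -0.45 and -0.33 and X11 unenriched juveniles between 0.03 and 0.20, while the X35 groups overlap.

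DNA replication was represented by 13 probes, all with a lower enriched mean over the families (median difference -0.46). The median over the class in single juveniles ran from -0.36 to -0.12 in X11 enriched fish and from 0.08 to 0.47 in X11 unenriched fish, and the 2 environments were also apart in X22 and X35. Origin licensing and fork proteins are described first. MCM3, a subunit of the helicase that unwinds DNA at forks, was separated in X22 only. MCM3 (C097R015) in X11 read -0.13, -0.38, 0.08, -0.26 and -0.15 in enriched and 0.06, -0.48, 0.09, -0.34 and -0.28 in unenriched heads. The X22 values of MCM3 were -0.31, -0.45, -0.03, -0.35 and -0.80 in enriched and 0.38, 0.12, 0.10, 0.06 and 0.21 in unenriched heads. MCM3 in X35 gave -0.69, -0.49, -0.25, -0.44 and -0.66 against -0.30, 0.23, -0.27, -0.30 and 0.25. The X11 groups covered the same range, and in X35 only enriched replicate 3 reached the unenriched range. Its mean difference was -0.32 (SE 0.09), with 1.25-fold less in enriched fish.

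CDC6 loads that helicase at origins. Its probe (C213R107) was dim or imputed on all 30 arrays, so no fold is given. CDC6 read -0.77, -0.50, -0.02, 0.33 and -0.30 in X11 enriched and 0.82, 1.04, 1.40, 0.63 and 0.79 in X11 unenriched heads, which did not overlap. In X22 it read -0.44, 0.04, 0.16, -0.06 and 0.31 against 0.30, 0.55, -0.01, 0.34 and 0.11, and in X35 -0.64, -1.60, 0.47, 0.84 and 0.12 against 0.24, 0.54, 0.97, 1.18 and 0.49. Those 2 families overlapped.

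PCNA is the sliding clamp that holds DNA polymerases on the template. PCNA (C259R081) in X11 read 0.36, -0.21, -0.01, -0.28 and -0.23 in enriched and -0.10, -0.04, 0.60, 0.35 and 0.51 in unenriched heads. The corresponding PCNA ratios in X22 were 0.18, 0.06, -0.03, -0.14 and 0.03 against 0.34, 0.18, 0.18, 0.24 and 0.63. PCNA in X35 read -0.20, -0.56, 0.04, 0.39 and -0.17 against 0.01, 0.35, 0.28, 0.29 and 0.16. Groups overlapped in every family, in X22 through enriched replicate 1 alone, and the mean difference was -0.32 (SE 0.09), or 1.24-fold.

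Replication factor C subunit 3 (RFC3, C132R101), part of the loader that sets PCNA on DNA, had the widest spread of the replication probes. RFC3 in X11 read -0.12, -3.12, -1.65, -0.63 and -0.71 in enriched and 1.82, 1.97, 1.62, 1.64 and 1.75 in unenriched heads. For X22 the RFC3 values were -0.85, 0.58, 0.38, 0.18 and 1.35 and -0.14, -0.23, 0.71, 0.18 and -0.81. RFC3 in X35 read -0.52, -0.27, 0.52, 0.77 and 0.41 and 1.13, 0.39, 1.52, 1.03 and 0.25. Every X11 enriched juvenile lay below 0 and every X11 unenriched one at or above 1.62, whereas X22 and X35 overlapped and the X22 enriched mean (0.33) was above the unenriched one (-0.06). The probe was dim or imputed on every enriched array. With the weakest dim signals raised to a floor, its Cy5 signal in X11 was about 4.11-fold lower in enriched fish. Only 3 of the 5 unenriched signals were above the limit, and this fold is approximate and no strict bound.

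The catalytic subunit of DNA polymerase delta (POLD1, C093R148), which copies the lagging strand, was dim on 29 of the 30 arrays. POLD1 read -0.81, -0.95, -0.64, -0.79 and -0.52 against 0.17, 0.08, -0.26, 0.19 and -0.53 in X11, enriched values first. In X22 the POLD1 ratios were -0.36, -0.81, -1.41, -0.88 and -0.71 against -0.07, -0.38, 0.32, -0.45 and -0.50. POLD1 in X35 gave -0.34, -1.99, -0.54, -0.13 and -0.50 against 0.04, 0.39, 0.04, 0.33 and -0.47. Enriched fish reached the unenriched range with replicate 5 in X11, replicate 1 in X22 and replicates 1 and 4 in X35, and no fold is given. Another probe of that name, C228R131, listed for X11 alone, differed by -0.63 in X11, against -0.06 in X22 and -0.18 in X35.

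The large subunit of ribonucleotide reductase (RRM1, C190R020) makes the deoxyribonucleotides of S phase. RRM1 in X11 read -0.28, -0.26, -0.10, -0.03 and 0.16 against 0.04, -0.16, 0.18, -0.05 and -0.31, which overlapped throughout. In X22 it read -0.08, -0.41, -0.17, -0.56 and -0.64 against 0.16, 0.42, 0.69, -0.14 and 0.44, and in X35 -0.43, -0.60, -0.33, 0.21 and -0.67 against 0.05, -0.01, -0.24, -0.19 and 0.29. Only replicate 1 in X22 and replicate 4 in X35 of the enriched fish reached the unenriched range. Its mean difference was -0.36 (SE 0.10), or 1.28-fold. Among the other replication probes the smallest difference was that of ADE2 (C075R094), an enzyme of purine synthesis, at -0.26 (SE 0.08).

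Of the 8 probes for cyclins, CDKs and their regulators, 5 were lower and 3 higher in enriched fish, in each family alike. The kinase CDC2, also called CDK1, and its partner cyclin-B1 drive entry into mitosis. CDC2 (C187R163) in X11 read 0.16, 0.21, -0.30, -0.36 and -0.26 in enriched and 0.70, 0.29, 0.15, 0.43 and 0.57 in unenriched heads. The X22 values of CDC2 were -0.47, 0.11, -0.15, -0.25 and 0.14 against 0.08, -0.12, 0.04, 0.83 and 0.51. CDC2 in X35 read -0.52, -0.89, -0.12, -0.31 and -0.27 against 0.17, 0.61, 0.43, 0.26 and 0.03. The X35 groups were separate, and 2 enriched fish reached the unenriched range in each of X11 and X22. The mean difference of CDC2 was -0.55 (SE 0.11), or 1.46-fold.

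Cyclin-B1 (C080R082) in X11 read -0.88, -0.56, -0.09, -0.29 and -0.58 against -0.59, -0.54, 0.17, 0.08 and -0.38. Cyclin-B1 in X22 read -1.67, -1.29, -0.52, -0.36 and -1.004 against -0.43, -0.12, -0.68, -0.03 and 0.10. Its X35 values were -1.28, -1.09, -0.85, -0.88 and -0.69 against -0.42, 0.40, -0.26, -0.37 and 0.05. As for CDC2, only X35 was separate, and all 15 enriched values were below 0. The mean difference was -0.60 (SE 0.13), or 1.52-fold.

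CKS2 (C251R045) is a small subunit that binds CDKs. CKS2 in X11 read -0.06, 0.09, -0.27, -0.18 and -0.06 against 0.06, 0.17, 0.43, 0.07 and 0.30, in X22 -0.04, 0.09, 0.57, -0.10 and -0.01 against 0.73, 0.28, 0.26, 0.64 and 0.48, and in X35 -0.24, -0.07, 0.32, -0.08 and 0.04 against 0.14, 0.47, 0.36, 0.21 and 0.35. In each family 1 enriched fish lay within the unenriched range, replicate 2 in X11 and replicate 3 in X22 and X35, and 11 of the 15 enriched values were below every unenriched value of the series. The mean difference was -0.33 (SE 0.08), or 1.26-fold.

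The 3 probes of this class with higher enriched means carry the names of 2 proteins known to restrain the cycle. Cyclin-G2, unlike most cyclins, is known from mammalian cells that leave the cycle. Cyclin-G2 (C076R102) in X11 read 0.62, 1.55, 0.77, 0.83 and 0.89 in enriched and -0.18, -0.35, 0.27, 0.31 and 0.34 in unenriched heads. Cyclin-G2 in X22 gave 0.16, 0.91, 1.04, 0.71 and 0.92 against 0.45, 0.66, -0.94, 0.22 and 0.44. The X35 ratios of cyclin-G2 were 0.79, 1.17, -0.08, -0.26 and -0.29 against 0.39, 0.14, -0.33, -0.89 and -1.12. Enriched fish were all above their sibs in X11, all but replicate 1 were above in X22, and the X35 groups overlapped widely. In X35 replicates 1 and 2 were the highest of their group in both environments. Enriched replicates 1 and 2 lay above unenriched replicates 1 and 2, and the other enriched fish above the other unenriched fish. That split was picked from the values too, so nothing is read from it. The mean was 0.69 higher in enriched fish (SE 0.18), or 1.61-fold, with 9 of 30 values dim, 6 of them in X35.

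CDK4 inhibitor B blocks the kinase CDK4 that carries cells out of G1. Its probe C154R165 in X11 read 0.17, 0.84, 0.16, 0.03 and 0.05 against -0.51, -0.93, 0.08, -0.50 and -0.15. In X22 that probe gave 0.06, 0.31, 0.23, 0.23 and 0.42 against 0.11, -0.07, -1.04, 0.004 and 0.15, and in X35 0.21, 0.49, 0.01, -0.07 and 0.31 against -0.17, 0.07, -0.07, -0.46 and 0.11. Groups overlapped in the 3 families, by 1 or 2 enriched fish each. The other probe, C080R079, in X11 read 0.20, 0.59, 0.51, 0.12 and 0.20 against -0.63, -0.55, 0.03, -0.40 and -0.04, with every enriched fish above its sibs. It gave -0.24, 0.09, 0.43, 0.11 and 0.46 against -0.28, 0.40, -0.77, -0.03 and 0.32 in X22, and 0.42, 0.52, 0.27, 0.29 and 0.19 against -0.09, 0.31, 0.06, -0.38 and -0.11 in X35, where groups overlapped. Mean differences of the probes were 0.46 (SE 0.12) and 0.42 (SE 0.11), or 1.37-fold and 1.34-fold. The study listed 2 further probes of that name for X11 alone. C213R054 was higher in enriched fish by 0.63 in X11, against 0.23 in X22 and 0.17 in X35. C002R093 differed by -0.71 in X11 and -0.14 in X35 but by 0.62 in X22, so the probes of this name did not all run the same way.

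Chromosome condensation and cohesion was represented by 9 probes, and each was lower on average in enriched fish in each of the 3 families (median difference -0.47). Topoisomerase 2-alpha (TOP2A) untangles sister DNA before the chromosomes part. TOP2A (C010R028) in X11 read -0.26, -0.28, -0.18, -0.09 and -0.03 against -0.17, 0.31, 0.66, 0.22 and -0.20. TOP2A in X22 read -0.02, 0.03, 0.41, -0.62 and -0.21 against 0.09, 0.73, 0.37, 0.13 and 0.25. The TOP2A ratios in X35 were -0.60, -0.60, -0.47, -0.60 and -0.56 against -0.11, 0.39, -0.31, -0.27 and -0.01. X35 was separate, with its 5 enriched values between -0.60 and -0.47, X22 overlapped through enriched replicate 3 and X11 through 3 fish. The mean difference was -0.41 (SE 0.10), or 1.33-fold.

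SMC4 is a core subunit of condensin, the ring complex that compacts mitotic chromosomes, and 2 probes carry its name. SMC4 probe C119R005 in X11 read 0.32, -0.01, -0.10, 1.02 and 0.01 against 1.01, 0.87, 0.57, 0.63 and 0.52. The same probe in X22 gave -0.60, -0.27, -0.39, -0.56 and -0.08 against 0.20, 0.34, 0.86, -0.001 and -0.36, and in X35 -0.51, -0.51, 0.13, 0.06 and 0.30 against -0.39, 0.20, 0.18, 0.47 and 0.71. In X11 only enriched replicate 4 reached the unenriched range, and the other families overlapped more widely. SMC4 probe C231R077 in X11 read 0.11, -0.08, -0.37, -0.59 and -0.44 against 2.09, 2.06, 1.57, 0.45 and 0.89. It gave -0.30, -0.37, -1.07, -0.76 and -0.48 against 0.15, -0.02, 0.39, -0.41 and -0.70 in X22, and 0.18, -0.24, 0.55, 0.75 and 0.71 against 0.04, 0.47, 1.22, 1.02 and 0.99 in X35. Only X11 was separate for C231R077, which was dim on all 15 enriched arrays and on 8 unenriched ones. Its Cy5 signal in X11 was about 2.72-fold lower in enriched fish, with 3 of the 5 unenriched signals above the limit. As the enriched signals were dim, that fold is approximate and no strict bound. The smallest difference of the class was that of the SMC2 probe C177R153, at -0.35 (SE 0.09).

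All 8 centromere and kinetochore probes had a lower enriched mean (median difference -0.50). Aurora B kinase and INCENP, its scaffold, belong to the chromosomal passenger complex, which corrects faulty attachments. Aurora B (C003R061) in X11 read -0.20, -0.41, -0.49, -0.12 and -0.03 against -0.13, 1.21, 0.24, 0.20 and 0.15. Aurora B in X22 read -0.35, -0.67, -0.58, -0.32 and -1.33 against 0.44, -0.58, 0.13, -0.37 and 0.02. For X35 the Aurora B values were -1.06, -1.21, -0.32, -0.56 and -1.08 against -1.26, 0.02, -0.41, -0.29 and 0.37. Groups overlapped in all families, in X35 completely, and 14 of 30 values were dim, 8 of them in X35. The mean difference was -0.57 (SE 0.15), or 1.48-fold. Another Aurora B probe, C203R166, which was dim on all 30 arrays and listed for X11 alone, differed the other way in X11 (0.53) and X22 (0.39) and by -0.04 in X35.

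INCENP probe C003R047 in X11 read -0.72, -0.36, -0.79, -0.56 and -0.41 against -0.64, 0.22, -0.13, -0.06 and -0.29. That probe gave -0.38, -0.32, -0.78, -0.83 and -0.85 against 0.07, -0.11, -0.15, -0.33 and -0.31 in X22, and -0.57, -0.97, -0.69, -1.19 and -0.24 against -0.54, -0.33, -0.45, -0.37 and 0.18 in X35. Only enriched replicate 2 in X22 and replicate 5 in X35 reached the unenriched range, and X11 overlapped more. INCENP probe C006R050 in X11 read -0.48, -0.11, -0.72, -0.55 and -0.59 against -0.61, -0.06, -0.09, 0.04 and -0.26. It gave -0.77, -0.25, -0.78, -0.98 and -1.44 against 0.29, -0.30, -0.19, -0.24 and -0.35 in X22, and -0.69, -1.08, -0.61, -0.66 and -0.75 against -0.24, -0.49, -0.61, -0.25 and -0.47 in X35. Again enriched replicate 2 was the fish of X22 in the unenriched range, while X35 was separate for this probe. The mean differences were -0.43 (SE 0.10) and -0.44 (SE 0.10), or 1.35-fold and 1.36-fold, with no dim value on either probe.

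CENP-I and CENP-M belong to the inner kinetochore. CENP-I (C177R128) was dim on 29 arrays, so its ratios are given with no fold. CENP-I in X11 read -0.44, -0.41, -1.02, -0.26 and -0.43 against -0.50, -0.45, -0.18, -0.37 and -0.50, in X22 -0.91, 0.17, -0.67, -0.57 and -0.94 against -0.23, -0.55, -0.21, 0.04 and -0.32, and in X35 -2.15, -1.43, -0.45, -0.40 and -1.31 against -0.75, 0.13, 0.34, 0.21 and 0.23. X11 and X22 overlapped, and in X35 enriched replicates 3 and 4 alone reached the unenriched range. CENP-M (C011R044) in X11 read -0.26, -0.60, -0.79, -0.30 and -0.47 against -0.46, 0.70, 0.72, 0.31 and -0.29. CENP-M gave -0.30, -0.39, -0.91, -0.18 and -0.88 against -0.32, 0.47, 0.23, -0.59 and -0.23 in X22, and -1.98, -1.45, -0.67, -1.27 and -0.69 against -1.23, -0.86, -0.21, -0.45 and -0.38 in X35. The environments overlapped in every family, and X35 had the lowest values. The probe was dim on 27 arrays, so no fold is given.

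CASC5, a scaffold of the outer kinetochore that recruits checkpoint proteins, had the largest difference of the class, -0.76 (SE 0.16). CASC5 (C237R008) in X11 read 0.38, -0.08, -0.37, -0.19 and -0.47 against 1.10, 0.79, 1.19, 0.58 and 0.87. In X22 the CASC5 values were -1.11, -0.14, -0.27, -0.11 and -0.89 against 0.38, 0.38, 0.59, 0.38 and 0.16. CASC5 in X35 read -0.61, -0.42, 0.62, 0.99 and 0.39 against -0.38, 0.48, 0.61, 0.92 and 1.03. X11 and X22 were separate and X35 overlapped, with enriched replicate 4 near the top of that family. Of the 10 dim values 9 were in enriched fish, and the fold of the means was 1.69.

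The 4 spindle assembly checkpoint probes had a class median of -0.56, close to that of DNA repair and damage signalling (-0.55). It was the largest class median in no single family. All 4 probes were lower in enriched fish in each family. TTK starts the checkpoint at unattached kinetochores, BUB1 is a kinase at the kinetochore, and MAD2A carries the signal to the anaphase-promoting complex. TTK probe C020R126 in X11 read -0.39, -0.05, -0.68, -0.20 and -0.49 against 0.82, 0.62, 0.59, 0.04 and 0.18. It gave -0.43, -0.10, -0.37, -0.26 and -0.36 against 0.04, 0.05, 0.36, -0.02 and 0.01 in X22, and -0.83, -0.80, -0.03, 0.05 and -0.25 against 0.10, -0.03, 0.01, 0.28 and 0.21 in X35. X11 and X22 were separate, X35 overlapped, and 13 of 15 enriched values were below every unenriched value of the series. TTK probe C248R111 in X11 read -0.20, -0.34, -0.77, -0.70 and -0.63 against -0.21, -0.15, 0.20, 0.05 and 0.12. That probe gave -0.40, -0.08, -0.40, -0.35 and -0.60 against -0.06, -0.16, 0.86, 0.13 and 0.12 in X22, and -0.70, -0.88, -0.15, -0.04 and -0.28 against -0.29, -0.03, -0.29, 0.24 and -0.24 in X35. Here 1 enriched fish each in X11 and X22 and 3 in X35 reached the unenriched range. Mean differences were -0.56 (SE 0.10) and -0.46 (SE 0.10), or 1.48-fold and 1.37-fold.

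BUB1 (C260R062) in X11 read -0.81, -0.47, -1.52, 0.07 and -0.91 against -0.06, -0.35, 0.06, 0.24 and 0.44. BUB1 in X22 read -0.41, 0.63, -0.44, -0.59 and -0.55 against -0.18, -0.01, 0.13, -0.01 and 0.29. Its values in X35 were -0.78, -1.11, -0.99, 0.07 and -0.63 against -0.39, 0.27, -0.36, -0.56 and 0.30. In each family a lone enriched fish reached the unenriched range, replicate 4 in X11 and X35 and replicate 2 in X22. The mean difference was -0.55 (SE 0.15), or 1.46-fold, with 13 of the 15 enriched values dim and 6 of the unenriched.

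MAD2A (C148R165) in X11 read 0.05, -0.42, -0.84, -0.42 and -0.82 against -0.49, -0.34, 0.06, 0.17 and 0.25. MAD2A gave -0.98, -0.01, -0.27, -0.52 and -0.48 against -0.51, -0.36, -0.29, -0.37 and -0.36 in X22, and -0.64, -1.68, -0.65, -2.64 and -0.76 against -0.86, 0.28, 0.01, -0.04 and 0.40 in X35. Groups overlapped in every family, and X35 enriched replicates 2 and 4 were the lowest of the series. The mean difference was -0.58 (SE 0.17), or 1.49-fold.

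The spindle, centrosome and cytokinesis class was the largest with a mitotic role, and 20 of its 21 probes were lower in enriched fish (median difference -0.47). In X11 the class median in single juveniles ran from -0.52 to -0.24 in enriched and from 0.01 to 0.14 in unenriched fish. The exception was cytoplasmic dynein light chain 2 (C128R109), a light chain of the motor dynein, which was 0.60 higher in enriched fish (SE 0.13), or 1.52-fold. The largest difference in the other direction was that of Maskin (C125R109), a centrosomal protein of the TACC family, at -0.80 (SE 0.22), but the probe was dim on every array that measured it and the fold is left out. The kinesins Eg5, KIF23, KIF2C and M-phase phosphoprotein 1, the microtubule bundler PRC1 and the spindle factor TPX2 are in this class and were all lower on average. For several of them the direction comes from dim signals. The KIF23 probes were dim on 28 and 29 arrays, KIF2C on 25 and the M-phase phosphoprotein 1 probes on 30 and 29. PRC1 and both TPX2 probes were dim on none.

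Outside the mitotic machinery, DNA repair and damage signalling had a median difference of -0.55, with 11 of 12 probes lower. BCCIP (C196R097), a partner of BRCA2, was the exception, 0.54 higher in enriched fish, or 1.45-fold. RIF1 (C100R025), a factor of replication timing and break repair, had the largest difference, -0.98 (SE 0.18), and was dim in both environments. The 10 nuclear pore and Ran cycle probes were all lower (median difference -0.37), from Nup160 (C161R096), a scaffold protein of the pore, at -0.25 (SE 0.08), to RCC1. RCC1, the exchange factor that charges the GTPase Ran on chromatin, is used in nuclear transport and in spindle assembly. RCC1 (C113R135) in X11 read -0.50, -1.92, -1.32, -1.31 and -0.96 against 1.12, 1.42, 0.91, 1.03 and 0.38. RCC1 gave -0.82, -1.28, -0.88, -1.11 and -0.82 against -1.23, -1.57, 1.24, -0.64 and -1.12 in X22, and -0.92, -1.16, -0.65, 0.01 and -0.53 against -0.79, -0.88, -0.16, 0.61 and -0.26 in X35. X11 was separate, with every enriched value at or below -0.50 and every unenriched one at or above 0.38, while the other families overlapped and X22 unenriched replicate 3 stood far above its tank mates. RCC1 was dim on all 15 enriched arrays and on 8 unenriched ones but on none of X11 unenriched. There its Cy5 signal was about 4.13-fold above the dim signals of the enriched fish, an approximate fold and no strict bound.

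**Figure D3:**
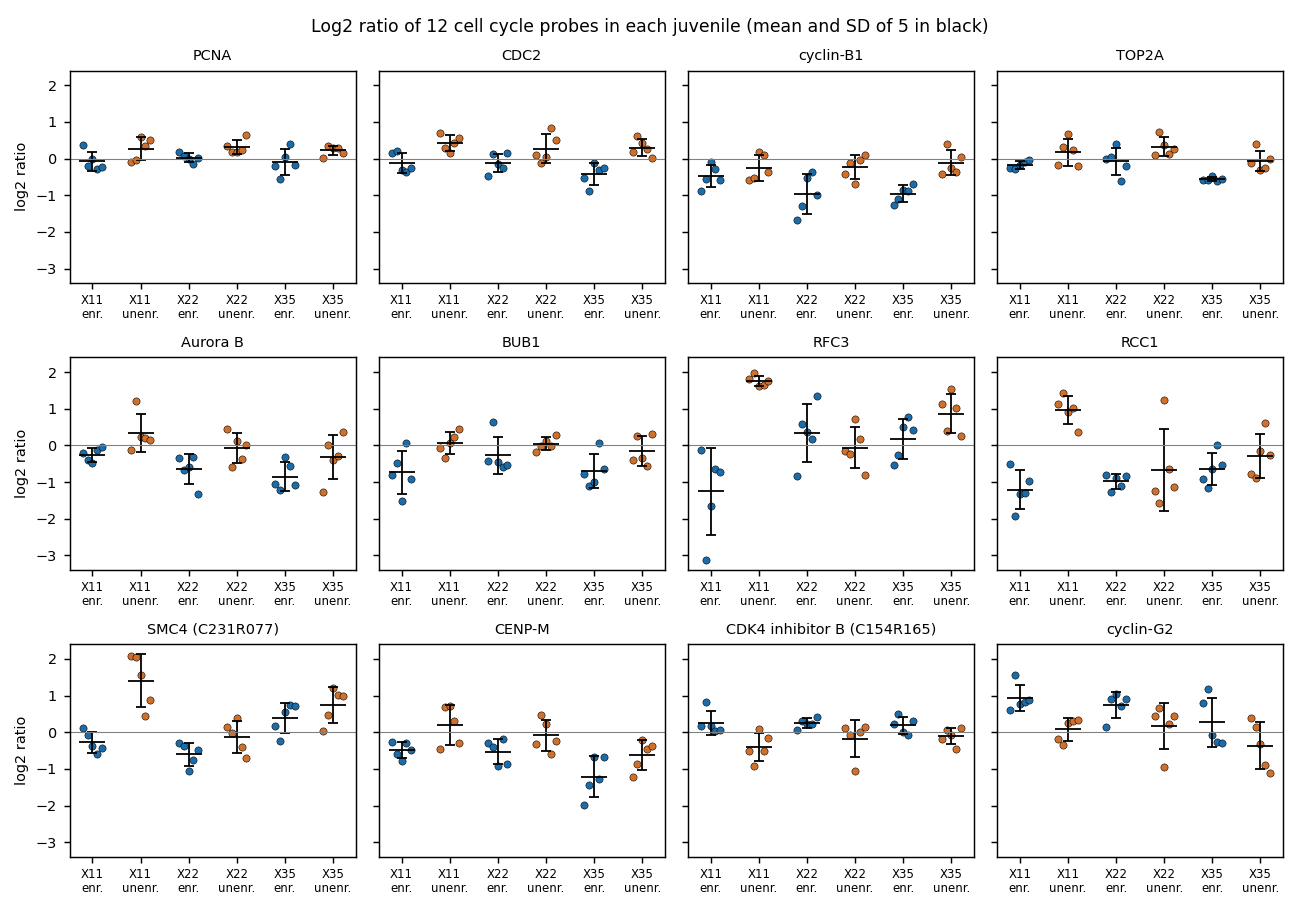
Log2 ratio of 12 of the probes in each juvenile, by family and environment (blue enriched, orange unenriched), with the mean and SD of 5 juveniles in black. RFC3, RCC1 and SMC4 probe C231R077 are separate in X11 and overlap in X22 and X35, CENP-M is lowest in X35, and cyclin-G2 and CDK4 inhibitor B run the other way.

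Among chromatin and transcription probes 9 of 10 were lower (median difference -0.45). The Myb-binding protein 1A-like probe (C233R147) differed most, at -0.62 (SE 0.15), and was dim on 16 arrays. The transcription factor Sox-2 (C141R027), known for keeping neural progenitors in an undifferentiated state, was 0.52 higher in enriched fish, or 1.44-fold. In the remaining class 25 of 26 were lower (median difference -0.40). The exception was AMP-activated protein kinase subunit beta-1 (C023R126), part of an energy sensor, which was 0.59 higher, or 1.50-fold. Caveolin-2 (C160R142), a membrane coat protein, had the largest difference there, -0.95 (SE 0.18), or 1.93-fold. That fold rests partly on weak signals, since the probe was dim on 11 of 15 enriched and 3 of 15 unenriched arrays.

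The 95 members that were not dim throughout the enriched arrays had a median difference of -0.43 (88 lower), and the 26 dim ones of -0.67 (26 lower). The 26 were picked by low signals in enriched fish, so nothing is read from their larger difference. Within slides that held juveniles of 1 family from both environments, the median difference of the 121 probes was -0.30 (103 lower) and -0.32 (100 lower) on the slides of X22, -0.42 (109 lower) on that of X11 and -0.62 (110 lower) on that of X35. On the same slides the medians of all probes lay between -0.03 and 0.01, and from 49.4 to 53.3% of all probes were lower. The same fish and contrast chose the members, so nothing is read from the direction within slides. These values rest on few fish. The X22 slides held 2 enriched against 2 unenriched and 1 against 3, the X11 slide 1 against 3 and the X35 slide 3 against 1.

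**Figure D4:**
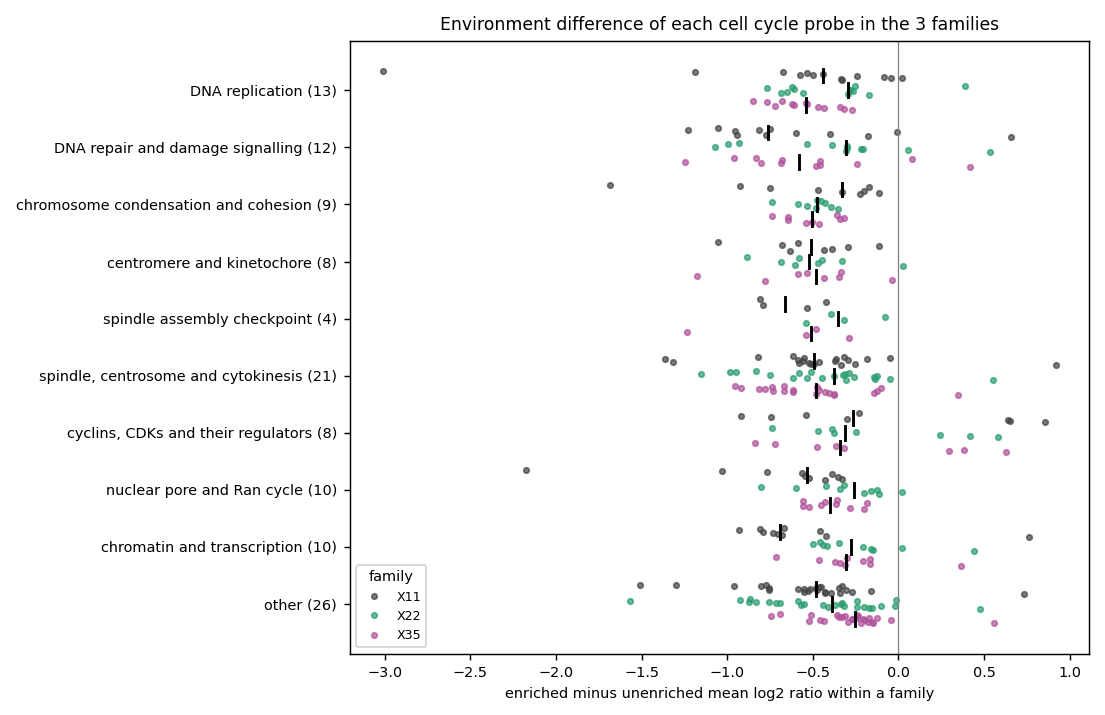
Environment difference of every member, enriched minus unenriched mean log2 ratio within a family, by functional class, with 1 point per probe and family and the class median of each family as a black line. Nearly all points lie left of 0 in each class, the RFC3 and RCC1 points of X11 reach -3.01 and -2.17, and the points right of 0 are mostly those of the 7 probes with higher enriched means.

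Differences between families were tested on the same ratios, averaged over the environments. This measure was not the one that chose the members, but the comparison behind the list had no term for family, so family spread counted there as error and a probe with large family differences was less likely to be listed. Of the 121 members 16 (13.2%) differed between families in limma's test over all probes, at an FDR of 5%, where 28.2% of all probes did. Without adjustment, 42 members had a p under 0.05, as did 41.7% of all probes. Given how the list was made, nothing is read from the lower share. Family, tank and the spread of families over slides cannot be told apart.

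SMC4 probe C231R077 differed most. Its mean was 0.57 in X11 and 0.57 in X35, and -0.36 in X22. It was 0.93 lower in X22 than in X11 (adjusted p = 0.0055, limma) and 0.92 lower than in X35 (adjusted p = 0.0033), and X11 and X35 differed by 0.0003. That last value averages the environments. The X11 mean was below the X35 mean in enriched fish and above it in unenriched fish. The probe was dim in 9 of 10 X22 fish and in 7 of 10 in each of the other families, so these are differences of ratios from weak signals and no fold is given. The other SMC4 probe, C119R005, was also lowest in X22, at -0.09 against 0.48 in X11 (adjusted p = 0.029, limma) and 0.06 in X35. CENP-M was lowest in X35, at -0.92 against -0.14 in X11 (adjusted p = 0.0044) and -0.31 in X22 (adjusted p = 0.027). It was dim in all 10 X35 fish, in 9 of 10 X11 fish and in 8 of 10 X22 fish, so no fold is given, and with slide as a block it did not pass the family test (adjusted p = 0.83, limma). Aurora B followed the same order, from 0.04 in X11 to -0.36 in X22 and -0.58 in X35 (X11 against X35, adjusted p = 0.019, limma). This Aurora B probe, C003R061, was dim in 8 of 10 X35 fish, 5 of 10 X22 fish and 1 of 10 X11 fish. With slide as a block neither the second SMC4 probe (adjusted p = 0.33) nor Aurora B probe C003R061 (adjusted p = 0.45) passed the family test. The other Aurora B probe, C203R166, is not a member and was dim on all 30 arrays. It also differed between families (adjusted p = 0.0011, limma), and its order of families is not given here.

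ANP32A (C086R088), an acidic nuclear phosphoprotein, was lower in X11 than in X35, -0.38 against 0.07 (adjusted p = 0.0041, limma). With slide as a block it did not pass the family test (adjusted p = 0.11, limma). ANP32A in X11 read -0.53, -0.99, -0.48, -0.67 and -0.94 in enriched and 0.03, -0.10, 0.06, 0.08 and -0.28 in unenriched fish. Its values were -0.04, -0.33, -0.28, -0.20 and 0.02 and 0.26, -0.23, 0.44, -0.24 and -0.28 in X22, and 0.02, -0.43, 0.03, 0.38 and -0.05 and 0.03, 0.03, 0.30, 0.28 and 0.14 in X35. The low X11 mean came with enriched fish that were all at or below -0.48. Allograft inflammatory factor 1 (AIF1, C254R073), a protein of macrophages and microglia, was -0.75 in X22 and -0.55 in X11 against -0.07 in X35 (adjusted p = 0.0094 and 0.047, limma). In the family test with slide as a block AIF1 did not pass (adjusted p = 0.06, limma). AIF1 in X11 read -0.81, -0.60, -0.92, -1.24 and -0.67 in enriched and -0.44, -0.05, -0.12, -0.57 and -0.11 in unenriched fish. Its X22 values were -1.16, -0.96, -0.41, -1.31 and -1.64 and -0.35, -0.97, 0.04, -0.48 and -0.28, and its X35 values -0.42, -1.27, 0.28, 0.34 and 0.08 and 0.02, -0.29, 0.07, 0.33 and 0.11. In X35 all fish but enriched replicates 1 and 2 and unenriched replicate 2 were above 0, and all X11 fish were below it.

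CKAP2 (C021R017), a microtubule protein of mitotic cells, was 0.52 higher in X11 than in X35 (adjusted p = 0.0074, limma), but with slide as a block the difference turned to -0.13 (adjusted p of the family test 0.47). CKAP2 in X11 read 0.02, 0.06, -0.20, -0.21 and 0.41 in enriched and 1.06, 0.27, 0.80, 0.46 and 0.43 in unenriched fish. It gave -0.30, -0.31, -0.25, -0.05 and -0.35 and 0.07, 0.24, 0.27, -0.30 and 0.08 in X22, and -0.68, -0.72, -0.65, 0.06 and -0.26 and -0.40, 0.23, -0.42, 0 and 0.67 in X35. Ranges of the families overlapped, with the highest single value in X11 unenriched replicate 1. The other members called were nuclear basket protein TPR (C169R125), histone chaperone NASP, TOP2A, Myb-binding protein 1A-like, filamin-C, the mitotic entry regulator ARPP19, RanGAP1 (C166R011), polybromo-1 and PRC1. Under that block ARPP19 still passed the family test (adjusted p = 0.018, limma), the differences of TOP2A, Myb-binding protein 1A-like and filamin-C changed sign, and the others did not pass.

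By pairs of families, 5 members were called between X11 and X22 (background 7.3%), 4 of them higher in X11 (background 3.27%) and 1, filamin-C, in X22 (background 4.03%). Between X11 and X35 the count was 12 (background 22.2%), with 6 higher in X11 (background 11.8%) and 6 in X35 (background 10.3%). Between X22 and X35 it was 7 (background 16%), with 4 higher in X22 (background 9.69%) and 3 in X35 (background 6.34%). Members that did not pass are not shown to be equal between families.

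The interaction test asked whether the environment difference itself differed between families. RFC3 was the only member called (1 of 121, where 0.0474% of all probes, 10 in number, were called). Without adjustment, 20 members had a p under 0.05, as did 15.4% of all probes. The RFC3 difference was -3.01 in X11 and -0.68 in X35, but 0.39 in X22 (adjusted p = 0.0468, limma). The call was at the edge of the threshold. It was lost when any of 18 of the 30 juveniles was left out (adjusted p 0.011 to 0.10 over the 30 fits), namely X11 enriched replicates 2, 3 and 5, X11 unenriched replicates 1, 2 and 3, X22 enriched replicates 2, 4 and 5, X22 unenriched replicates 1, 2, 4 and 5, X35 enriched replicates 3, 4 and 5 and X35 unenriched replicates 1 and 2. The probe was dim on 21 arrays and imputed on 4.

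The next members by p did not pass. RCC1 had a difference of -2.17 in X11, against -0.32 in X22 and -0.36 in X35 (adjusted p = 0.11, limma). SMC4 probe C231R077 had -1.68, -0.48 and -0.36 (adjusted p = 0.15). CLASP2 (C245R120), a protein of microtubule plus ends, read -0.37, -1.89, -1.68, -0.34 and -0.84 in enriched and 0.06, 0.72, 0.14, 0.21 and 0.34 in unenriched fish of X11. CLASP2 gave -0.12, -0.20, -0.26, -0.27 and -0.67 and -0.28, -0.48, 0.33, -0.08 and -0.30 in X22, and -0.19, -0.32, 0.28, 0.28 and 0.23 and 0.16, -0.43, 0.39, 0.62 and 0.16 in X35 (adjusted p = 0.13, limma). Only X11 was separate for CLASP2. USP28 (C165R018), a deubiquitinase of the damage response, read -0.42, -1.34, -1.02, -1.70 and -0.65 in enriched and 0.31, 0.47, 0.37, 0.39 and -0.52 in unenriched fish of X11. USP28 gave -0.91, -0.26, -0.29, -1.02 and -1.43 and 0.14, 0.15, 1.08, -0.13 and -0.17 in X22, and -0.10, 0.06, 0.53, 0.61 and -0.04 and -0.15, -0.54, 0.37, 0.73 and 0.27 in X35 (adjusted p = 0.17, limma). USP28 was separate in X22, and in X35 the groups overlapped, with a mean of 0.21 in enriched and 0.13 in unenriched fish. Members that did not pass are not shown to respond alike in the 3 families.

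The pairs of members that share a name were compared as separate spots. Both probes of a pair were listed for the environment difference over all families, so other probes of the same name were left out in advance. Those listed for X11 alone, such as probes of CDK4 inhibitor B, Aurora B and POLD1, were not correlated. The salmonid genome carries an old duplication, so probes of the same name may read duplicate genes or the same transcript, and which is not known. For these reasons r describes the listed pairs only and is not read as a check of each reading. Deviations of the 30 juveniles from their group means were correlated within each of the 15 pairs. The median r was 0.53, where the median over all pairs of the 21117 probes was 0.0005 (quartiles -0.17 and 0.18) and over all pairs of the 121 members 0.14. With permutation of juveniles within groups, 8 of 15 pairs had an adjusted p under 0.05 both for Pearson's r and for Spearman's rho.

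CDK4 inhibitor B had the closest pair (r = 0.75, rho = 0.67, adjusted permutation p = 0.0009 and 0.0032). Its r was 0.64 without the 2 juveniles farthest from the median of probe C154R165. In every pair the 2 farthest juveniles were taken by 1 of the probes only, so outliers of the other probe may remain. CHORDC1, a co-chaperone, had the next closest pair (r = 0.74, rho = 0.65, adjusted permutation p = 0.0009 and 0.0038), with 0.67 without the 2 farthest. Among mitotic genes r was 0.56 for M-phase phosphoprotein 1 and for SMC2, 0.54 for TTK, 0.53 for SMC4, 0.51 for INCENP and 0.37 for Eg5, and each of these pairs passed for r and for rho. Without the 2 farthest juveniles r was 0.43, 0.40, 0.43, 0.65, 0.62 and 0.56 in that order. Both TTK probes stood apart from the tank mates in X22 unenriched replicate 3. The M-phase phosphoprotein 1 probes were dim on 30 and 29 arrays, so that r compares signals under the limit. One SMC4 probe (C231R077) was dim on 23 arrays and one Eg5 probe (C233R161) on 13. PDGFRB had r = 0.67, which did not pass (adjusted permutation p = 0.109). Its r was 0.31 without the 2 farthest juveniles and 0.08 without X22 enriched replicate 5. The pairs of TPX2 (0.32), KIF23 (0.17), RanGAP1 (0.07), SPAG5 (-0.09) and TPR (-0.09) did not pass either.

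**Figure D5:**
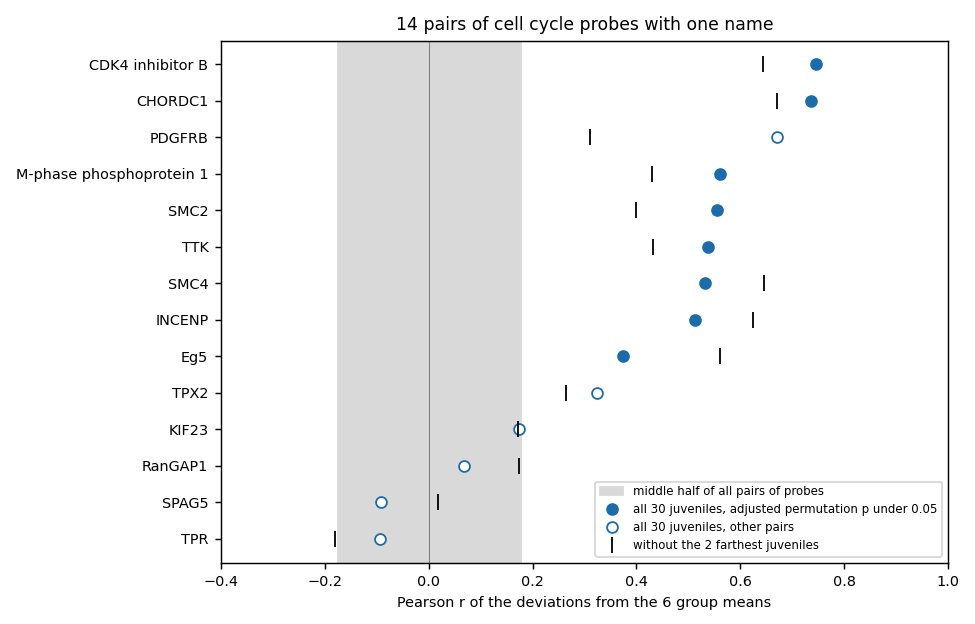
Pearson r of the deviations from the 6 group means over 30 juveniles for 14 of the 15 pairs of probes that share a name. Filled circles mark an adjusted permutation p under 0.05, and the grey band holds the middle 50% of all pairs of probes. Ticks show r without the 2 juveniles farthest from the median of 1 probe of the pair. CDK4 inhibitor B is highest at 0.75, while KIF23, RanGAP1, SPAG5 and TPR lie in the band.

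As a description over 30 juveniles that share arrays and dyes, CASC5 (0.29), AIF1 (0.28) and condensin complex subunit 1 (0.28) had the highest mean correlation with the other members within groups. Cyclin-G2 (-0.24), Sox-2 (-0.24) and dynein light chain 2 (-0.17) had the lowest, and these 3 are among the 7 with higher enriched means.

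Beyond the members, 23 cell cycle probes were listed by the study for X11 alone, and 15 were lower and 8 higher in X11 enriched fish. Of the 15, 5 were lower in X22 (median difference 0.06) and 14 in X35 (median difference -0.10). Of the 8, 6 were higher in X22 and 5 in X35. They were listed for X11 alone, so probes also listed over all families were left out in advance. Neither their directions in the other families nor how many pass a test there is read. Not all of the 23 were called in X11 here (for C129R050, adjusted p = 0.073, limma). Of all 1558 probes called lower in X11, whatever they did elsewhere, 56.4% were lower in X22 and 67.5% in X35. Of all 1261 called higher in X11, 69.9% were higher in X22 and 77.4% in X35.

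Markers of other tissues of the head moved between the environments as well. Their names come from the same supplementary tables, so these counts are descriptions. All 13 heart muscle probes were lower in enriched fish in every family (median difference -0.66), and their summed ratio, on the log2 scale, ran from 2.84 to 3.24 in X11 enriched and from 3.52 to 4.55 in X11 unenriched fish. In X22 it ran from 2.98 to 3.21 against 2.96 to 4.54, and in X35 from 3.04 to 3.68 against 3.40 to 4.57. Of 5 skeletal muscle probes 4 were lower (median difference -0.47), of 5 blood probes 3 (-0.14) and of 4 eye lens probes 3 (-0.11). X22 went the other way for these lists, with 1 of 5 skeletal muscle probes lower (median difference 0.005), 2 of 5 blood probes (0.23) and 1 of 4 lens probes (0.57). Of 18 neuron probes 7 were lower and the median difference was 0.36, and of 14 skin and epithelium probes 2 were lower, with a median of 0.45. No marker was dim on all 30 arrays. The part of tissue composition in the cell cycle differences was not tested.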

How the data were processed

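Whole-head RNA of 30 juveniles was compared with a pooled reference on 2-colour Agilent 4x44K salmonid arrays, with Cy5 on the juvenile and Cy3 on the pool on every array, so dye and sample source cannot be told apart. The deposited table holds log2 ratios of 21117 probes that the authors filtered on the Cy3 signal, normalized by loess within arrays and completed by imputation (1.06% of values). The deposited scanner files hold the spot intensity of each channel. Each column of the table matched its own array's recomputed ratios best (30 of 30, lowest r 0.9974), which also fixed its direction, juvenile over pool, while the medians of the columns lay between -0.07 and -0.004. Gene names came from the study's supplementary lists, whose own fold changes and p-values were not used, and 1 listed probe and 1 pair of probes of 1 name are not reported here by name. The functional classes and gene lists were drawn up by hand, and members and lists were chosen with earlier results of these data known.

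Tests were limma 3.58.1 fits (R 4.3.3) of the 6 groups over all probes, with Benjamini-Hochberg adjustment at an FDR of 0.05. The family and interaction tests were F-tests of 2 contrasts each. Standard errors of environment differences come from that fit. A Cy5 signal under the mean plus 2 SD of the array's background was called dim. Folds against dim groups were computed from single-channel signals after loess and Aquantile normalization. Each dim signal was raised to a floor if it lay under it, and the unenriched mean was set over these values. The floor was the lowest normalized signal of any spot above the limit on that array. It can lie under the dim signals, so these folds are not strict bounds, and they are open to dye bias. Correlations of probe pairs used 100000 permutations of juveniles within groups, two-sided, with 15 pairs adjusted together.

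Values in every juvenile are given for 26 probes of replication, cyclins and CDKs, condensation, kinetochore, checkpoint and Ran genes chosen by name. Also named are the 5 lowest p of the family and of the interaction test, every pair of probes of 1 name, and the probe with the highest and the lowest environment difference of each class. The test scripts were checked on simulated data. Alternatives were ratios recomputed with and without normexp (offset 50), equal scaling of arrays, no imputed values, a filter on dim probes, slide as a block, array weights, tank means, a replicate block and leaving out each juvenile.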

Additional observations from a re-analysis of the deposited data

Results flagged for a closer look

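In 17 of 192 checks, 1 fish stood apart from its tank mates by Dixon's criterion (a gap of over 0.71 of the range). A check covered 1 probe, or the median of all members, in 1 of the 6 groups of 5 juveniles. Chance flags about 1 in 20 such checks, but these reuse the same fish, so no excess is read from the count. All values are log2 ratios, and the reasons were not tested. X22 unenriched replicate 3 stood apart on 5 probes: it was low for cyclin-G2 (-0.936, a dim signal, against 0.221 to 0.663 in its tank mates) and for CDK4 inhibitor B probe C154R165 (-1.044, against -0.070 to 0.149), and high for TTK probes C248R111 (0.863, against -0.164 to 0.128) and C020R126 (0.360, against -0.019 to 0.047) and for USP28 (1.080, against -0.166 to 0.152). The other checkpoint probes did not stand apart in this fish. Its array had the highest median Cy5 signal of all arrays (831.5). The median of its heart muscle markers was 0.83, against -0.63 to -0.12 in its tank mates. X11 enriched replicate 2 was high for cyclin-G2 (1.548, against 0.618 to 0.887) and for the same CDK4 inhibitor B probe (0.838, against 0.027 to 0.165).

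The other 10 cases fell on different fish. X35 enriched replicate 2 was low for POLD1 (-1.993, dim), X22 enriched replicate 3 high for CKS2 (0.569) and X11 unenriched replicate 2 high for Aurora B (1.214). X22 unenriched replicate 1 was high for INCENP probe C006R050 (0.287), and X22 enriched replicate 2 was high for BUB1 (0.628). CENP-I was low in X11 enriched replicate 3 (-1.016, dim) and in X35 unenriched replicate 1 (-0.754, dim). TOP2A in X35 enriched replicate 3 was -0.470, above its 4 tank mates, CLASP2 in X22 enriched replicate 5 was -0.669, below its tank mates, and USP28 in X11 unenriched replicate 5 was -0.518, also below.

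RFC3 stood out because its environment difference varied between families in limma's interaction test (adjusted p = 0.0468), with X11 and X35 lower and X22 higher in enriched fish.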

How the results depend on the processing

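Of the 16 members called between families, slide as a fixed block left 4 called, 2 of them among the 16, array quality weights gave 39, means of the 6 tanks 0 and the replicate block 14, 13 of them among the 16. The interaction call of RFC3 was absent, with 0 members called, under normexp, among probes with no imputed value, with dim signals set to missing, with slide as a fixed block and with the replicate block (adjusted p of RFC3 0.061), while array weights gave 5. Between X11 and X22 the counts were 2 with slide as a block, 20 with array weights and 0 with tank means. Between X11 and X35 they were 2, 22 and 1, and between X22 and X35 they were 0, 22 and 0, and 4 with dim signals set to missing. With the replicate block these pairs gave 4, 13 and 7. Leaving out 1 juvenile gave 9 to 23 calls between families (9 without X35 unenriched replicate 3), 0 to 2 interactions (2 without X22 unenriched replicate 3), 2 to 7 calls between X11 and X22, 9 to 20 between X11 and X35 (20 without X35 enriched replicate 2, 19 without X35 unenriched replicate 2) and 5 to 14 between X22 and X35 (14 without X22 unenriched replicate 3). The X11 and X22 count was 2 or 3 without X11 enriched replicate 1, 3 or 4, X11 unenriched replicate 1 or 5, X22 enriched replicate 2, 3 or 4 or X22 unenriched replicate 4 or 5. With slide as a block, 4 family differences changed sign: filamin-C between X11 and X22 (0.034), TOP2A between X22 and X35 (-0.11), CKAP2 between X11 and X35 (-0.13) and Myb-binding protein 1A-like between X22 and X35 (-0.088). SMC4 probe C231R077 was called between families with recomputed ratios, normexp, slide as a fixed or random block and the replicate block, with an adjusted p of 0.0013 to 0.042. CENP-M, ANP32A and AIF1 were not called with slide as a block (adjusted p 0.83, 0.11 and 0.06), nor AIF1 under normexp (0.12). The median environment difference was -0.23 in X22 under normexp and -0.62 in X35 with slide as a block, and stayed negative in every alternative. The same fish and contrast chose the members, so nothing is read from its sign. The causes were not tested. Families lay mostly on different slides, so the fit with slide as a block drew on few slides. Replicate numbers were used only as names: same-numbered fish correlated at a mean r of 0.015, fish of other numbers at -0.0035, and 8 of 30 correlated best with their own number. That mean is over all families and cannot show a split within 1 family. In X35 unenriched fish the neuron marker median was 0.14 and 0.24 in replicates 1 and 2, against -0.62 to -0.33 in replicates 3 to 5. In X35 enriched fish it was 0.48 and 0.08, against -0.17 to -0.07. Dim signals limit 27.7% of the members' values, and 79 members were left when they were removed.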
